A study of Homo sapiens with 3 samples.

Results

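Mitotic spindle, kinetochore and checkpoint genes were followed as a set of 40 genes that carry a cell from the G2 phase through chromosome segregation and cytokinesis. Members were the rows of the deposited expression table whose gene symbol equalled 1 of the 40 listed names, so 40 of the 23131 rows were used. Expression was measured in 39 of them. *BUB1B*, which encodes the checkpoint kinase BUBR1, carried the status FAIL and was not measured, as were *C15orf56* and *PAK6* at the same locus.

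RNA came from HCT-116, an established colon carcinoma line labelled APC wild-type and CTNNB1ΔSer45. The ΔSer45 form of β-catenin lacks a serine needed for its degradation. Cells had passed through 2 transfections on consecutive days with Dharmafect 2 and were harvested 48 hours after the second. The group called anti-*APC* siRNA received a pool of siRNAs against *APC*. The control is called untransfected in its title and reagent-only (mock) in its treatment label, and it carried the same cell line genotype. Each group was 1 library, so no difference below has a replicate check and no p-value is given. The library of cells given scrambled siRNA was not used here, so a response to *APC* silencing and a response to any siRNA cannot be told apart.

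Progress through mitosis is driven by the CDK1 kinase bound to cyclin B, which is held back by WEE1 and released by the CDC25 phosphatases. Chromosomes are then captured by microtubules at kinetochores, and the spindle assembly checkpoint keeps the CDC20-activated anaphase-promoting complex silent until every kinetochore is attached. The adenomatous polyposis coli protein encoded by *APC* is a different molecule from that complex, although the abbreviation is the same. It restrains β-catenin, and it also binds microtubules and has a role of its own at kinetochores and spindle ends. Most mitotic genes are transcribed in G2 and M phase under the DREAM, B-MYB and FOXM1 factors, which act through a pair of short promoter elements, the CHR (cell-cycle homology region) and the CCAAT box bound by NF-Y.

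Levels are in FPKM, fragments counted for a gene and scaled by its transcript length and by the size of the library, and each difference is the log2 ratio of anti-*APC* siRNA over untransfected. *APC* was present at 3.43 FPKM after anti-*APC* siRNA and at 9.15 FPKM in untransfected cells, a ratio of 0.375. Low values recovered a depth of about 21100000 reads for the anti-*APC* library (quartiles over genes 11900000 and 23700000) and 23100000 for the untransfected library (quartiles 13000000 and 26000000). At that depth the 39 genes held an estimated 396 to 38751 reads per library. The 95% intervals given with log2 ratios are computed from these reads and cover counting error only. The epithelial keratin and adhesion markers *KRT8*, *KRT18*, *KRT19*, *EPCAM* and *CDH1* were present. *VIL1* and *CDH17* stayed below 0.1 FPKM, and 5 of 6 fibroblast and 5 of 6 blood cell markers were below 1 FPKM. The 8 epithelial markers summed to 1294 FPKM after *APC* silencing and 1650 FPKM in untransfected cells. Their part in the results below was not tested.

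The promoters of 6 members are shown so that the elements typical of this class of genes can be seen, or found missing, in the members at the top by ratio or level. *TOP2A*, *CENPF* and *AURKB* had the highest log2 ratios among the members with a RefSeq promoter entry, and *CCNB1*, *CDC20* and *PTTG1* had the highest levels. Each sequence is the 250 bases before the annotated start, taken from the RefSeq promoter table on GRCh38.p14 and written 5′ to 3′ on the strand of the gene. Capitals mark the CHR (TTTGAA), its variant TTTAAA and the CCAAT box on either strand.
*TOP2A*, chr17:40417897-40418146, minus strand: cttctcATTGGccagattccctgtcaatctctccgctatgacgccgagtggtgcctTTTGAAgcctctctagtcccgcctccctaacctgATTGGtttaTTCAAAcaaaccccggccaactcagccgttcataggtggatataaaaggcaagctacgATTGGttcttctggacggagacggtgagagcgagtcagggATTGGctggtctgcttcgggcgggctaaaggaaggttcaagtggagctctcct
*CENPF*, chr1:214602945-214603194, plus strand: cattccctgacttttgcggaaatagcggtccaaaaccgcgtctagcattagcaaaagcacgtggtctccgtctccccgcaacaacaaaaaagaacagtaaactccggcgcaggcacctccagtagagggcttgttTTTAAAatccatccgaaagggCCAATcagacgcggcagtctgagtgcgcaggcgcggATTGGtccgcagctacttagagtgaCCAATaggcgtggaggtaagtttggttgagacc
*AURKB*, chr17:8210226-8210475, minus strand: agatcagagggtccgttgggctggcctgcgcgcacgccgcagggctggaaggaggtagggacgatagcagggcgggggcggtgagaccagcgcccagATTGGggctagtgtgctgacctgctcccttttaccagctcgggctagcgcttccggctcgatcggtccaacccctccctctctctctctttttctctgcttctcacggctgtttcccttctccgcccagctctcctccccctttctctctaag
*CCNB1*, chr5:69166900-69167149, plus strand: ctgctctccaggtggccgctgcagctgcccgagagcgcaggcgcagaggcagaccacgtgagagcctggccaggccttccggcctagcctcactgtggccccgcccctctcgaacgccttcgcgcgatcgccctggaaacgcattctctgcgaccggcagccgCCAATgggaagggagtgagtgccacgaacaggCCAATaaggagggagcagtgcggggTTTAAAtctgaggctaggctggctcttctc
*CDC20*, chr1:43358731-43358980, plus strand: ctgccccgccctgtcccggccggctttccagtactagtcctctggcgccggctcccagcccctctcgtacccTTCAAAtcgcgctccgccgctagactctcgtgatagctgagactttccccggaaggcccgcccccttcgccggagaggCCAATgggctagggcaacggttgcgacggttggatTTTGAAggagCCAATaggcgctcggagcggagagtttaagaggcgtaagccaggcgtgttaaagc
*PTTG1*, chr5:160421605-160421854, plus strand: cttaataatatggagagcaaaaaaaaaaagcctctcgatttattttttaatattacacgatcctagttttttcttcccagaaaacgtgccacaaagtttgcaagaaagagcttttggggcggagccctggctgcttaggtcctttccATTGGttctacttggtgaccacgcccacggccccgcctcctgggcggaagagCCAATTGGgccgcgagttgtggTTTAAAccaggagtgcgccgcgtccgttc

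*CCNB1* and *PTTG1* have the same arrangement near the start, with CCAAT boxes followed by TTTAAA. *TOP2A* has 4 CCAAT boxes and 2 CHR elements, and *CDC20* has 2 of each. *CENPF* has 3 CCAAT boxes and a TTTAAA in the printed stretch, and a TTTGAA was matched for it outside that stretch. *AURKB* has 1 CCAAT box and neither CHR form in the printed stretch.

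Over windows of 300 bases (250 before and 50 after each start), TTTGAA was found for 23 of the 34 members with an entry (67.6%), compared with 18.2% of all 27305 genes in the table and 13.1% of the 9231 genes of at least 1 FPKM. The variant TTTAAA was found for 12 members (35.3%), compared with 14.5% of all genes. CCAAT was found for 26 members (76.5%), compared with 39.7% of all genes. A CHR form and a CCAAT box stood in the same window for 21 members (61.8%), and for 11.2% of all genes. Among members, the 5 without TTTGAA or TTTAAA were *AURKB*, *BUB1*, *MAD1L1*, *SGOL1* and *SPC24*. For TTTGAA, other mitotic genes lay between the members and all genes, at 46.9% of 96, but for TTTAAA they were below all genes, at 9.38%. G1/S and replication genes, which are transcribed earlier in the cycle, had TTTGAA in 3.45%, TTTAAA in 17.2% and CCAAT in 65.5% of 29. A gene with several promoter entries was counted if any of its windows held the element. A CCAAT match may share bases with a neighbouring match, and any match is a string of letters, not a bound site. No promoter entry was matched for *AURKA*, *BIRC5*, *BUB3*, *TPX2*, *TTK* or *WEE1*.

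**Figure D1:**
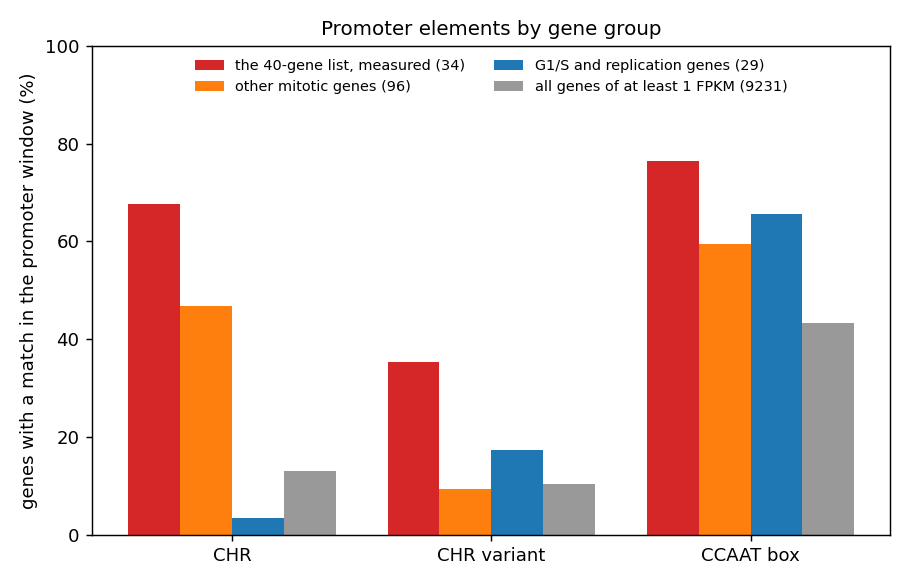
Share of genes (y axis, percent) whose promoter window holds the CHR, the CHR variant or the CCAAT box (x axis), for the 34 members with an entry, 96 other mitotic genes, 29 G1/S and replication genes and 9231 genes of at least 1 FPKM. The members have the tallest bar for each element, at 67.6%, 35.3% and 76.5%.

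Across the list, expression of mitotic genes after *APC* silencing lay close to that of untransfected cells. The median log2 ratio of the 39 genes was 0.06 (quartiles -0.02 and 0.14), 27 were above 0 and 12 below. Among all 12063 genes with a mean of at least 1 FPKM, the median was -0.05 (quartiles -0.24 and 0.11) and 58.6% were below 0. At least 1.5-fold higher expression was found for 1 member, *WEE1*, compared with 2.56% of all genes. At least 1.5-fold lower expression was found for 0 members, compared with 6.61% of all genes, and these libraries allow no test of either count. With a milder limit, 2 members were at least 25% higher (*WEE1* and *TOP2A*) against 7.17% of all genes, and 1 was at least 20% lower (*BIRC5*) against 18.4%.

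The spread of the members was narrow. A total of 25 of 39 (64.1%) had levels within 10% of each other in both libraries, compared with 44.03% of all genes and 51.8% of the 6897 genes with a mean in the members' own range (9.44 to 215 FPKM). The share was 65.7% for the 35 G1/S and replication genes and 56.9% for the 109 other mitotic genes, so it was not particular to the members. Genes in the members' range had 5th and 95th percentiles of log2 ratio of -0.48 and 0.34, and 38 of 39 members lay between them, with *WEE1* outside. The median untransfected level was 25.9 FPKM for genes in that range and 63.3 FPKM for the members, so levels were not matched. An effect of level on the spread was not tested. The counting interval excluded 0 for 18 members above 0 and 6 below. It also excluded 0 for 69 of the 109 other mitotic genes and 23 of the 35 G1/S and replication genes. The share over all genes was not computed. For these 24 members, the interval says that read number was not the limit. It does not measure variation between cultures. In bulk RNA, a difference in the share of cells in mitosis and a difference in RNA per mitotic cell cannot be told apart. The order of the members by level was nearly the same in both libraries (Spearman's rho 0.988 over 39 genes, a description of libraries that share a cell line and a pipeline).

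**Figure D2:**
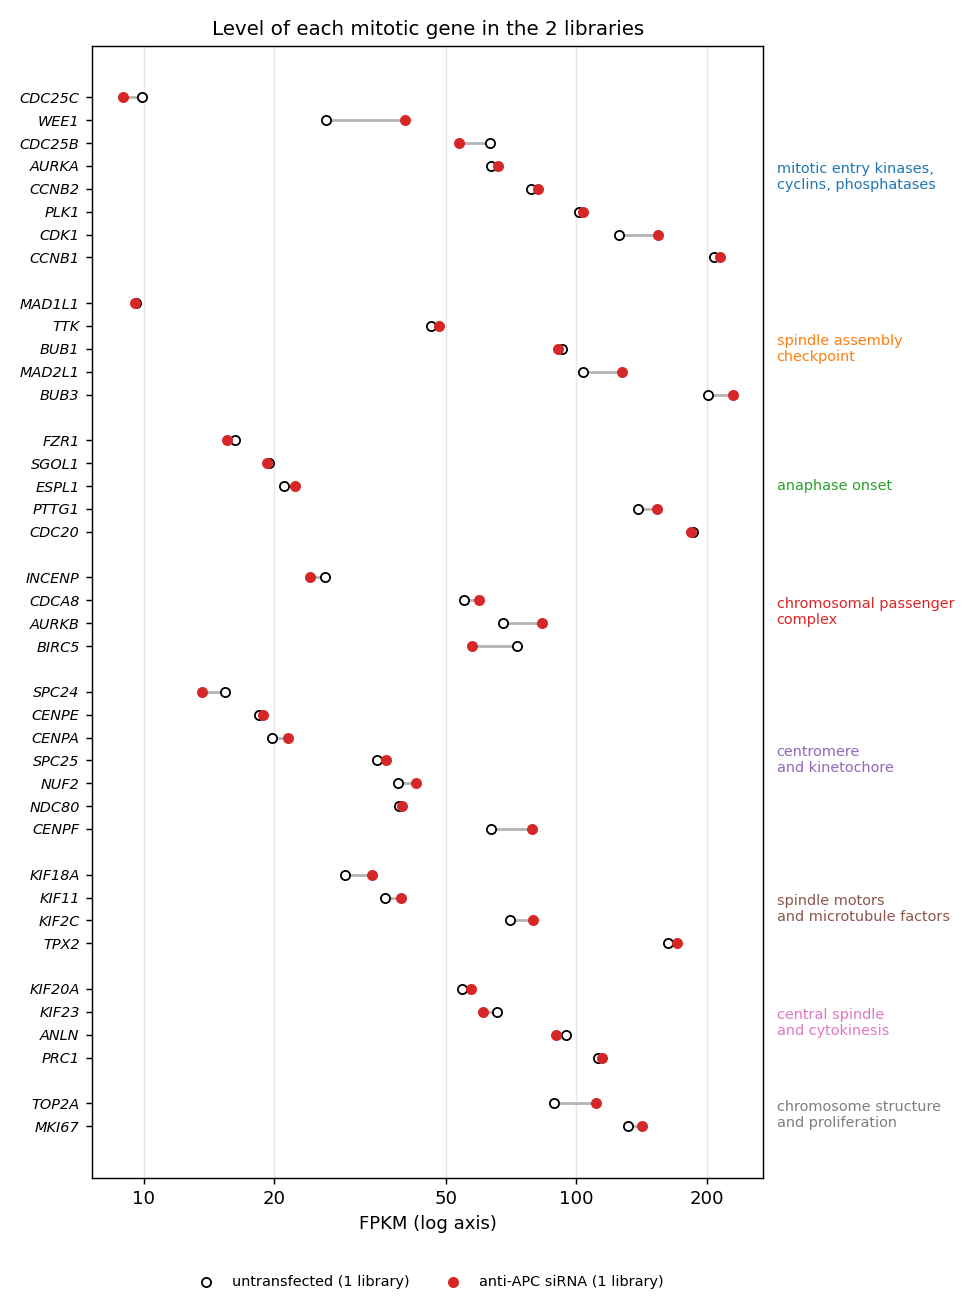
Level of each of the 39 measured genes in FPKM (x axis, log scale) after anti-*APC* siRNA (filled, 1 library) and in untransfected cells (open, 1 library), grouped by role and joined by a line. The *WEE1* line is the longest, from 26.4 to 40.1 FPKM, and most pairs nearly touch.

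Regulators of mitotic entry held both the highest and some of the lowest ratios, with a group median of 0.05 and 6 of 8 genes above 0. *WEE1* (chromosome 11, 9595217 to 9615004 on GRCh37, coordinates here and below from GENCODE 44), the kinase that inhibits CDK1 by tyrosine phosphorylation, was at 40.1 FPKM after *APC* silencing and 26.4 FPKM in untransfected cells. Its log2 ratio was 0.60 (interval 0.52 to 0.68), higher than 97.5% of all genes, and its interval reaches below 1.5-fold. With a pseudocount of 1 FPKM the *WEE1* log2 ratio was 0.58, just under 1.5-fold. *CDK1* (chromosome 10, 62538089 to 62554610), the kinase that WEE1 inhibits, was at 154 and 125 FPKM, a log2 ratio of 0.30 (interval 0.25 to 0.35).

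The phosphatases that oppose WEE1 had ratios on both sides of 0, and *CDC25A*, which is not a member, is described with the other mitotic genes below. *CDC25B* (chromosome 20, 3767419 to 3786768), which activates CDK1 at the start of mitosis, was at 53.6 FPKM after *APC* silencing and 63.0 FPKM in untransfected cells, a log2 ratio of -0.23 (interval -0.30 to -0.17). *CDC25C*, the later-acting phosphatase and the lowest member by mean level of both libraries, was at 8.95 and 9.94 FPKM, and its interval of -0.34 to 0.04 included 0. The *WEE1* level therefore went from 0.420 to 0.748 of the *CDC25B* level, and the difference of their log2 ratios was 0.84 (interval 0.73 to 0.94). This gene pair and the 10 other pairs compared were chosen after the values were seen.

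Cyclins and the remaining entry kinases differed little. *CCNB1*, which encodes the cyclin B1 partner of CDK1 and whose promoter is shown above, was the entry gene with the highest level at 215 and 207 FPKM (log2 ratio 0.05, interval 0.01 to 0.09). *CCNB2*, the second B-type cyclin, was at 81.4 and 78.6 FPKM, and *CCNB1* was 2.64 times *CCNB2* in both libraries. *PLK1*, a kinase acting from entry to cytokinesis, was at 103 and 101 FPKM, and *AURKA*, the kinase of spindle poles, at 66.0 and 63.3 FPKM. The *CDK1* log2 ratio exceeded that of *CCNB1* by 0.25 (interval 0.18 to 0.31).

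Spindle assembly checkpoint genes had a median log2 ratio of 0.06, with 3 of 5 measured genes above 0. *BUB3* (chromosome 10, 124913918 to 124929983), the adaptor that brings BUB1 and BUBR1 to kinetochores, had the highest level of the group at 230 FPKM after *APC* silencing and 201 FPKM in untransfected cells (log2 ratio 0.19, interval 0.17 to 0.21). *MAD2L1* (chromosome 4, 120976778 to 120988013), which encodes the MAD2 protein that inhibits CDC20, was at 128 and 104 FPKM, a log2 ratio of 0.30 (interval 0.26 to 0.33). Its partner *MAD1L1*, which anchors MAD2 at unattached kinetochores, was at 9.57 and 9.60 FPKM. The level of *MAD2L1* was therefore 13.3 times that of *MAD1L1* after *APC* silencing and 10.8 times in untransfected cells. The kinase genes of the checkpoint had near-equal levels, with *BUB1* at 90.7 and 92.6 FPKM and *TTK*, which encodes MPS1, at 48.2 and 46.1 FPKM. Subtracting the median of all genes turned *BUB1* from -0.03 to 0.02. The annotated spans of *BUB3* and *MAD2L1* run past the ends of their deposited loci. The transcript lengths used for them (7703 and 5227 bases) may therefore be too long, and their intervals too narrow.

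Genes of anaphase onset had similar levels in both libraries, with 4 of 5 within 10% and a median log2 ratio of -0.02 that became 0.04 when the median of all genes was subtracted. *CDC20* (chromosome 1, 43824652 to 43828874), the activator of the anaphase-promoting complex that the checkpoint restrains, was at 184 FPKM after *APC* silencing and 186 FPKM in untransfected cells (interval -0.07 to 0.03). *FZR1*, the CDH1 activator that takes over after anaphase, had the lowest ratio of the group at 15.6 and 16.3 FPKM (log2 ratio -0.07, interval -0.16 to 0.03). *PTTG1* (chromosome 5, 159848862 to 159855746), which encodes securin, had the highest at 153 and 139 FPKM (log2 ratio 0.14, interval 0.06 to 0.22). The protease that securin inhibits, separase (*ESPL1*), was at 22.4 and 21.1 FPKM. Shugoshin (*SGOL1*), which protects centromeric cohesin, was at 19.2 and 19.5 FPKM.

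Subunits of the chromosomal passenger complex, which corrects faulty kinetochore attachments and later directs cytokinesis, were split. *AURKB* (chromosome 17, 8108051 to 8113918), the kinase subunit, was at 83.3 FPKM after *APC* silencing and 67.5 FPKM in untransfected cells, a log2 ratio of 0.30 (interval 0.21 to 0.39). *BIRC5* (chromosome 17, 76210267 to 76221717), which encodes survivin, the subunit that binds phosphorylated histone H3, was at 57.3 and 72.9 FPKM. Its log2 ratio of -0.35 (interval -0.41 to -0.28) was the lowest of the 39 members, and 16.8% of all genes were as low or lower.

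In untransfected cells *AURKB* was below *BIRC5*, at 0.926 of its level, and after *APC* silencing it was above, at 1.45 times. The difference of their log2 ratios was 0.65 (interval 0.54 to 0.76). The scaffold subunit *INCENP* was at 24.2 and 26.2 FPKM, and borealin (*CDCA8*) at 59.6 and 55.0 FPKM. *BIRC5* shares its locus with *EPR1*, a transcript in the table at 32.6 and 38.2 FPKM, so reads may be divided between the entries. Their summed level was 89.9 FPKM after *APC* silencing and 111 FPKM in untransfected cells, a log2 ratio of -0.31. Against that sum the change of order was lost, since *AURKB* was below it in both libraries, at 0.926 and 0.607 of its level. The group median was 0.00, and it was 0.12 without genes that share a locus, which leaves out *BIRC5*.

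Centromere and kinetochore genes had a median log2 ratio of 0.07, with 6 of 7 above 0. *CENPF* (chromosome 1, 214776528 to 214837917), a large protein of the outer kinetochore, was both the highest by level and the highest by ratio, at 79.0 FPKM after *APC* silencing and 63.3 FPKM in untransfected cells (log2 ratio 0.32, interval 0.29 to 0.35). The centromeric histone gene *CENPA* was at 21.6 and 19.8 FPKM, and the kinetochore motor *CENPE* at 18.9 and 18.5 FPKM.

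The NDC80 complex forms the microtubule grip of the kinetochore, and *SPC24* was below its other subunits in level and ratio. *NDC80* itself was at 39.5 and 38.9 FPKM, *NUF2* at 42.5 and 38.6 FPKM, and *SPC25* at 36.3 and 34.7 FPKM. *SPC24* (chromosome 19, 11242196 to 11266483) was the lowest by level and by ratio, at 13.6 and 15.4 FPKM (log2 ratio -0.18, interval -0.33 to -0.03). The *NUF2* log2 ratio exceeded that of *SPC24* by 0.31 (interval 0.14 to 0.49), and that of *NDC80* did so by 0.20 (interval 0.02 to 0.37). The annotated spans of *SPC24*, *NUF2* and *SPC25* run past the ends of their deposited loci, so intervals that use them may be too narrow.

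All 4 spindle motor and microtubule factor genes were above 0, with a median log2 ratio of 0.15 and intervals that excluded 0. *KIF18A* (chromosome 11, 28042166 to 28129703), a kinesin that dampens chromosome movement at the metaphase plate, had the highest ratio at 33.7 FPKM after *APC* silencing and 29.2 FPKM in untransfected cells (log2 ratio 0.21, interval 0.12 to 0.29). The microtubule-depolymerising kinesin *KIF2C* (MCAK) was at 79.2 and 70.1 FPKM. *KIF11*, which encodes the Eg5 motor that pushes spindle poles apart, was at 39.3 and 36.2 FPKM. *TPX2* (chromosome 20, 30327074 to 30389608), the activator of Aurora A, had the highest level and the lowest ratio of these genes at 170 and 163 FPKM (log2 ratio 0.06, interval 0.03 to 0.10). Each of these 4 genes was less than 25% higher.

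**Figure D3:**
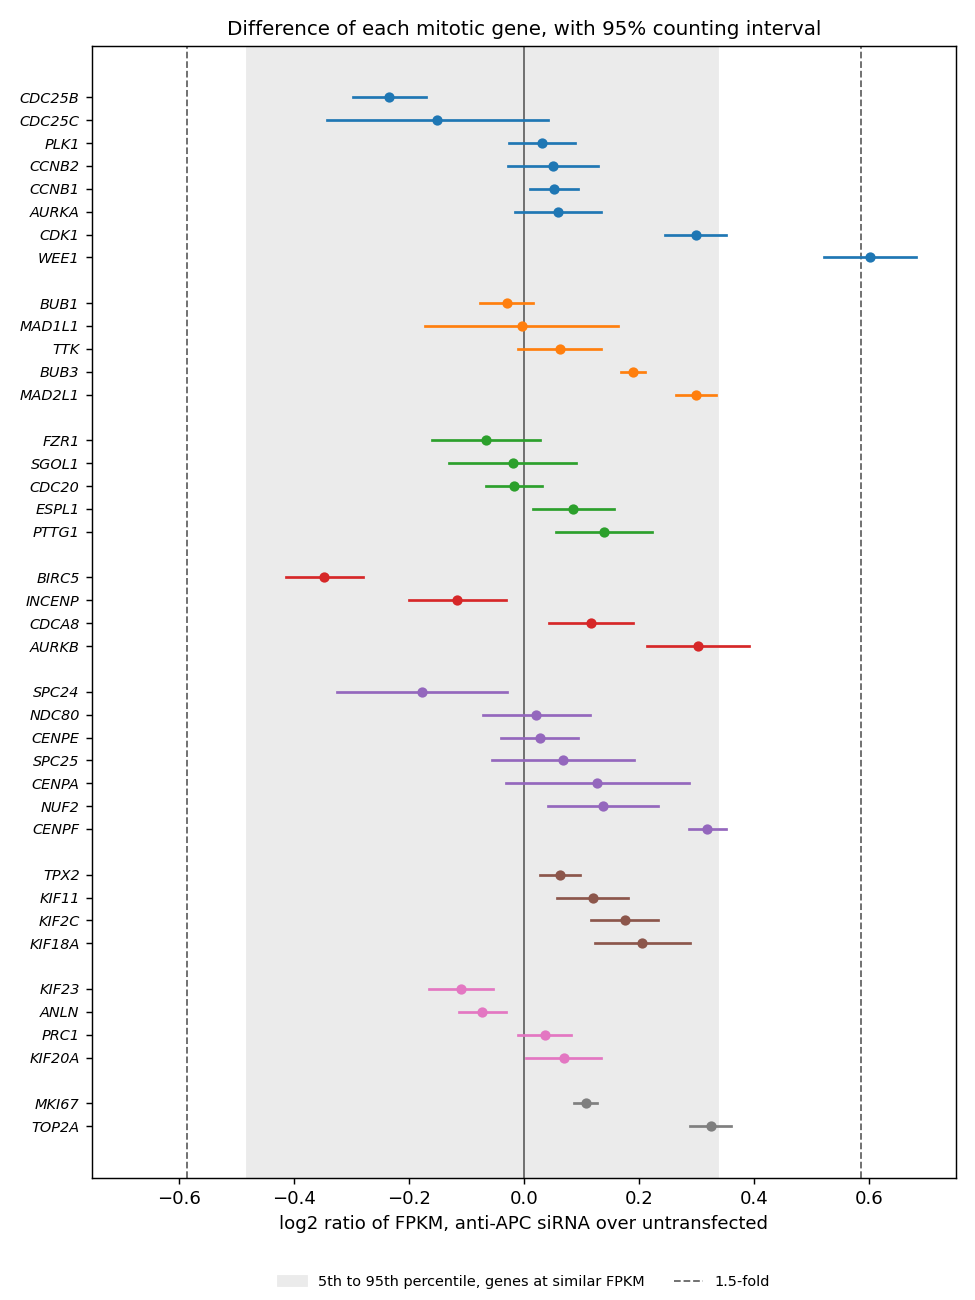
Log2 ratio of FPKM, anti-*APC* siRNA over untransfected (x axis), for each of the 39 measured genes by role, with 95% counting intervals as bars. The grey band runs from -0.48 to 0.34, the 5th to 95th percentile of genes with a mean of 9.44 to 215 FPKM (similar FPKM in the legend). Dashed lines mark 1.5-fold, and *WEE1* at 0.60 is the point outside the band.

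Central spindle and cytokinesis genes were all within 10%, with a median log2 ratio of -0.02 that became 0.04 when the median of all genes was subtracted. *PRC1* (chromosome 15, 91509270 to 91538859), which bundles the antiparallel microtubules of the midzone, had the highest level at 115 FPKM after *APC* silencing and 112 FPKM in untransfected cells (log2 ratio 0.04, interval -0.01 to 0.08). *KIF23*, the motor subunit of centralspindlin, had the lowest ratio at 60.7 and 65.5 FPKM (log2 ratio -0.11, interval -0.17 to -0.05). *ANLN*, which encodes the cleavage furrow protein anillin, was at 89.8 and 94.4 FPKM. *KIF20A*, a midzone kinesin, had the highest ratio at 57.0 and 54.3 FPKM (log2 ratio 0.07, interval 0.00 to 0.13). It shares a locus with *CDC23*, and the sum of both was 93.0 and 86.4 FPKM.

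*TOP2A* and *MKI67*, whose proteins untangle and coat mitotic chromosomes and which are used as proliferation markers, were both above 0. *TOP2A* (chromosome 17, 38544777 to 38574148), which encodes topoisomerase IIα, was at 111 FPKM after *APC* silencing and 88.6 FPKM in untransfected cells, a log2 ratio of 0.32 (interval 0.29 to 0.36). *MKI67* (chromosome 10, 129894923 to 129924687), which encodes Ki-67, was at 142 and 132 FPKM, a log2 ratio of 0.11 (interval 0.09 to 0.13). Members at least 20% higher were 6 of 39, compared with 9.87% of all genes, and the 5 apart from *WEE1* were between 23.0% and 25.2% higher. These 5 were *TOP2A*, *CENPF*, *AURKB*, *MAD2L1* and *CDK1*, which sit in 5 different role groups. The 20% limit was not one of the planned folds. At the planned limit of 25% higher the members were at 5.13%, below the 7.17% of all genes.

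Promoter elements were also set beside the ratios. Members with TTTGAA had a median log2 ratio of 0.08 (22 genes), and members without it had 0.03 (11 genes). Members with a CHR form and a CCAAT box in the same window had 0.09 (21 genes), and the others -0.01 (12 genes). Subtracting the median of all genes raises both medians equally, the second to 0.04, and leaves the gap between them unchanged. Among expressed genes outside the list, which still include the other mitotic genes, the corresponding medians were 0.00 (775 genes) and -0.06 (8495 genes). A link between the promoter elements and the ratios was not tested. *AURKB*, with neither CHR form, was among the highest members by ratio, and *SPC24*, also without, among the lowest.

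The wider mitotic programme was read from 110 other genes, of which 109 were measured. Their median log2 ratio was 0.07 (quartiles -0.07 and 0.17), 65 were above 0 and 44 below (40.4%, compared with 58.6% of all genes). By subset, the median was 0.11 for other centromere and kinetochore genes (31 genes), 0.08 for condensin and cohesin (14), 0.07 for other kinesins and spindle genes (25) and 0.07 for other mitotic kinases and phosphatases (13). It was 0.01 for the anaphase-promoting complex (15), and -0.01 for cell-cycle transcription factors (11). Subtracting the median of all genes raises the medians of all these subsets equally, and the last becomes 0.04. These transcription factor genes ranged from -0.37 (*LIN37*, interval -0.78 to 0.03) to 0.25 (*RBL1*, interval 0.15 to 0.34), with intervals that excluded 0 for 3 above and 3 below. *FOXM1* was at 58.9 FPKM after *APC* silencing and 60.5 FPKM in untransfected cells, and *MYBL2*, which encodes B-MYB, at 79.3 and 79.2 FPKM. Among DREAM subunit genes, *E2F4* was at 68.3 and 75.3 FPKM, *RBL2* at 3.45 and 4.16 FPKM and *LIN9* at 12.5 and 10.6 FPKM. *PKMYT1*, the kinase that shares with WEE1 the inhibition of CDK1, was at 37.5 and 36.0 FPKM. The genes named in this subset and *PKMYT1* were chosen after their values were seen.

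Past 1.5-fold there was 1 higher gene and 1 lower gene among the 109, beside the 2.56% and 6.61% of all genes. *CDC25A*, the CDC25 phosphatase that acts at both S phase and mitotic entry, was at 39.4 FPKM after *APC* silencing and 24.0 FPKM in untransfected cells, a log2 ratio of 0.72 (interval 0.64 to 0.80). Its direction was the opposite of *CDC25B* in the same libraries. *TUBG1*, which encodes the γ-tubulin that nucleates spindle microtubules, was at 28.9 and 52.7 FPKM, a log2 ratio of -0.87 (interval -0.98 to -0.76). *TUBG1* shares its locus with *FAM134C*, which was at 18.9 and 10.996 FPKM, and their sum was at 47.8 and 63.7 FPKM. Its near-identical copy *TUBG2* was at 12.1 and 14.6 FPKM, so the *TUBG1* value is uncertain.

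**Figure D4:**
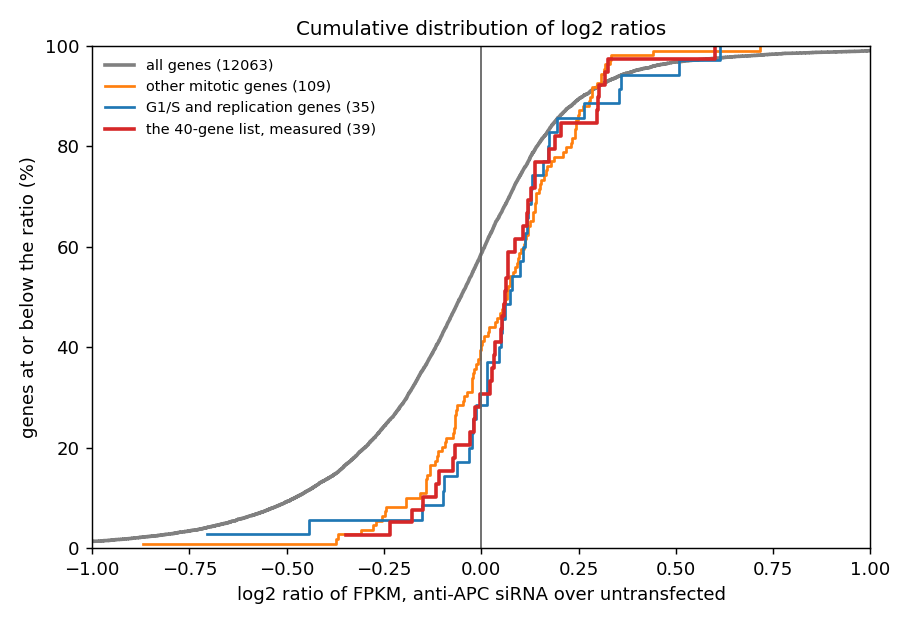
Cumulative share of genes (y axis, percent) at or below each log2 ratio of FPKM, anti-*APC* siRNA over untransfected (x axis, shown from -1 to 1), for the 39 members, 109 other mitotic genes, 35 G1/S and replication genes and all 12063 genes. At a ratio of 0 the members' curve is at 30.8% and that of all genes at 58.6%, and the curves of the mitotic and G1/S lists run close together.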

How the data were processed

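RNA from HCT-116 cells was sequenced by the authors as single-read TruSeq libraries, and the submitters' processing notes name Cufflinks, Cuffdiff and build hg19, whose chromosomes match GRCh37. The aligner, annotation and versions are not given in the sources used here. FPKM values were deposited by the authors for 1 anti-*APC* siRNA library and 1 untransfected library, estimated per gene and therefore dependent on how reads are divided among genes at shared loci. The deposited table also holds the authors' own comparison (a log fold change, test statistic, p-value, q-value and significance call), which was not used. Scrambled siRNA cells were not analysed here.

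Rows with status FAIL (269, all listed at 0) were removed, and genes with a mean of at least 1 FPKM over both libraries were kept. The log2 ratio was computed with no pseudocount, and 1.5-fold was the call. No test was possible with 1 library per group. Depth was recovered from low values: 327 genes low in both libraries share a log2 ratio of 0.13 within 0.01, taken as equal read numbers, and 232 genes whose ratio is that of 1 read against 2 gave the depth through their GENCODE 44 transcript lengths. This estimate depends on those lengths, and reads are not recovered exactly. Where an annotated gene runs past its deposited locus, the length may be too long and the interval too narrow. Intervals are 95% Poisson intervals of the ratio and cover counting error only.

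Role lists, pathway lists, markers and promoter motifs came from textbook knowledge. The members and lists were chosen with earlier results of these data known. Values are given for members past 1.5-fold and, in each role group, for the highest level, highest ratio and lowest ratio, and the other members were named to complete each complex. From the other lists pooled, genes past 1.5-fold and the 2 highest and 2 lowest ratios were named, which were *CDC25A*, *CDK6*, *TUBG1* and *MCM6*. Further genes of these lists were named with their values seen. Promoter windows came from RefSeq on GRCh38.p14, and 34 of 40 members matched by symbol. Alternatives were other folds, minimums and pseudocounts, median subtraction, loci with 1 gene and status OK only. The depth and ratio code was tried on simulated Poisson reads. These used the same transcript lengths, so they cannot check the lengths or the division of reads at shared loci. Scripts ran in Python 3.11.15, using pandas 2.3.3, numpy 2.4.6 and matplotlib 3.10.9.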

Additional observations from a re-analysis of the deposited data

How the results depend on the processing

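No paired analysis was possible because each group is 1 library, and for the same reason no replicate could be left out. Of the 40 members, 1 passed 1.5-fold, and the count was 3 when at least 25% higher or 20% lower was enough, 0 at 2-fold and 0 with a pseudocount of 1 FPKM, where *WEE1* was at a log2 ratio of 0.58. Of all genes, 1106 passed 1.5-fold, and the count was 3084 at that milder limit, 280 at 2-fold, 3162 with no minimum, 533 with a minimum of 5 FPKM and 735 at loci with 1 gene. Higher genes made up 27.9% of all calls at 1.5-fold and 41.1% at 2-fold. Of the other mitotic genes, 2 passed, and the count was 7 at the milder limit, 0 at 2-fold and 1 at loci with 1 gene, which leaves out *TUBG1*. The median of the chromosomal passenger complex went from 0.00 to 0.12 at loci with 1 gene. Subtracting the median of all genes shifts every ratio by 0.05, and took the members below 0 from 12 to 8 (*BUB1*, *CDC20*, *MAD1L1* and *SGOL1* changed sign). That shift exceeded the estimated counting error for 10 of the single genes checked. Among them were *BUB3* and *MAD2L1*, whose counting error may be underestimated. Only members past 1.5-fold, or highest or lowest in a role group, were checked singly. No result called at 1.5-fold reversed. The counting interval of a member's log2 ratio reaches a median of 0.067 to either side. Variation between cultures was not measured.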

Other observations

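Genes of G1/S and DNA replication, the cell-cycle programme that precedes mitosis, had a median log2 ratio of 0.07 over 35 measured genes. Of these, 25 (71.4%) were above 0, compared with 41.4% of all genes. The list held 1 gene at least 1.5-fold higher (2.86%, compared with 2.56% of all genes). It held 1 gene at least 1.5-fold lower (2.86%, compared with 6.61% of all genes). *CDK6*, a G1 cyclin-dependent kinase, was at 46.3 FPKM after *APC* silencing and 30.2 FPKM in untransfected cells (log2 ratio 0.61, interval 0.57 to 0.66). *MCM6*, a subunit of the replicative helicase, was at 66.9 and 109 FPKM (log2 ratio -0.70, interval -0.75 to -0.66). *RRM2*, *CCND1*, *GINS1* and *CCNA2* were picked with their values known. *RRM2*, the small subunit of ribonucleotide reductase, was at 259 and 182 FPKM, and the WNT target *CCND1*, which encodes cyclin D1, at 315 and 246 FPKM. *GINS1*, a subunit of the same helicase assembly as *MCM6*, was lower, at 19.6 and 26.7 FPKM (log2 ratio -0.44, interval -0.54 to -0.34). Other genes of that assembly did not share this, so it was not lower as a whole. Their log2 ratios were -0.15 (*MCM3*), -0.10 (*MCM5*), -0.01 (*MCM2*), 0.04 (*MCM4*), 0.07 (*MCM7*), 0.13 (*CDC45*) and 0.16 (*GINS2*). *CCNA2*, which belongs to the list of other mitotic kinases and encodes the cyclin A that acts from S phase into mitosis, was at 112 and 92.1 FPKM (log2 ratio 0.28), close to *CDK1* at 0.30.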
